A study of Mus musculus with 743 samples.

Results

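Egr2, Pou3f1, Pou3f2, Sox10, Nab1, Nab2, Zeb2 and Yy1 encode transcription factors and cofactors with established roles in driving Schwann cell (SC) myelination. These 8 genes were chosen by name, not by their measured values, from the 25700 genes counted in single SCs of the newborn mouse sciatic nerve, and all 8 had reads and passed the filter on low counts in the comparisons of cell classes. The cells were sorted by enhanced yellow fluorescent protein (eYFP) at postnatal day 1 into 2 plates of wells, 1 cell to a well, and were sequenced with Smart-seq2, a full-length RNA protocol without molecular identifiers. The question was how the 8 regulators are distributed between dividing cells, cells marked by RNA of the myelin gene Ncmap and the remaining cells. A further question was whether Pou3f1 and Egr2 occur in the same cells.

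All 743 wells form 1 group. The mice were on the C57bl/6J background and carried 3 transgenes, a Cre transgene active in the SC lineage together with ReYFPTg/+ and βAct-DsRedTg/+. Cells in which Cre had not been active were not sampled, and the nerves were dissociated with enzymes before sorting. Each plate was filled from separate mice, 1 male and 1 female pooled, so the plate was the replicate (n = 2) and cells were not. There was no treatment and no mutant.

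In the background to these genes, Sox10 is required throughout the SC lineage and acts on nearly every later gene of it. When an SC has taken up a single axon, axonal and matrix signals raise Pou3f1 (Oct6) and its relative Pou3f2 (Brn2), which together with Sox10 switch on Egr2 (Krox20), the factor that drives the myelin protein and lipid genes and ends the immature programme. Nab1 and Nab2 are cofactors that bind EGR proteins, Zeb2 represses genes that hold back differentiation, and Yy1 is a general zinc finger factor that has been placed upstream of Egr2.

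Promoter windows from RefSeq, of 250 bases before and 50 after each annotated start site on GRCm38.p6, were at hand for 6 of the 8 genes (13 windows) and not for Pou3f1 and Sox10. A window of Egr2 and the window of Nab1 are printed because they were the ones that held letters bound by another member of the group, the octamer ATGCAAAT bound by POU factors and the 9-base sites GCGTGGGCG and GCGGGGGCG bound by EGR factors. Capitals mark these matches, read 5′ to 3′ on the strand of the gene, and both strands were searched.
Egr2 promoter, chr10:67537680-67537979, plus strand: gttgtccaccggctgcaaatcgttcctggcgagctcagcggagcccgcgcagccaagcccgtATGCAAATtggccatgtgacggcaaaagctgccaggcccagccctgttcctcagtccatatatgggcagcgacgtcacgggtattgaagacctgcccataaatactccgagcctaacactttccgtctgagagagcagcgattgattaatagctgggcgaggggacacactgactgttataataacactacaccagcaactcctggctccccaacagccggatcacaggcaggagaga
Nab1 promoter, chr1:52500399-52500698, minus strand: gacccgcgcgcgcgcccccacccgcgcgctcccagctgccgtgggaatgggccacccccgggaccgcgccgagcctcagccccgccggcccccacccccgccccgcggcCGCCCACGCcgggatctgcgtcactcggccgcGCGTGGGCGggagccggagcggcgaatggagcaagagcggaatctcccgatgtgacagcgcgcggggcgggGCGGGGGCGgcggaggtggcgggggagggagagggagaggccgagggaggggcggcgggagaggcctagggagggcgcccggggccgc
The octamer lay 188 to 181 bases before the start site in the printed Egr2 window. The same octamer was in 3 of the 5 annotated Egr2 windows. Only these 3 overlap each other, and they hold the octamer at the same place in the genome. The letters ATGCAAAT or their reverse complement occurred in 1.74% of the 32851 promoter windows of the genome. The Nab1 window held GCGTGGGCG once on each strand, a match found in 0.612% of all windows, and GCGGGGGCG once, found in 2.91%. The YY1 core GCCATNTT (6.05% of all windows) and the ZEB E-box CAGGTG (20.2% of all windows) were not among the letters of the 13 windows. A match is a description of the sequence and not a measured binding site.

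Of the 743 wells, 621 had at least 1500 detected genes and were kept as cells, 287 on plate 1 and 334 on plate 2, with a median of 928401 and 791056 reads per cell. Cells in which Mki67 and Top2a, genes of dividing cells, summed to at least 50 CPM (reads of a gene per 1000000 reads assigned to genes) were called cycling. Noncycling cells with at least 50 CPM of Ncmap, a peripheral myelin protein gene, were called promyelinating, and the rest are referred to as other cells. The promyelinating class held 59 and 60 cells on plates 1 and 2 (20.6% and 18% of cells, exact 95% binomial intervals 16 to 25.7% and 14 to 22.5%, which cover counting error only), the other class 175 and 217 and the cycling class 53 and 57. Few cells lay near the limits: 9 of 621 had Mki67 plus Top2a between 25 and 100 CPM, 5 under and 4 over the limit, and 9 of 511 noncycling cells had Ncmap in that range, 4 under and 5 over. The SC markers Sox10 and Erbb3 were each present in 82.4% of cells, while the endothelial genes Cdh5 and Kdr, the fibroblast gene Pdgfra, the immune genes Ptprc and Tyrobp and the mural genes Acta2 and Rgs5 had no read in the 621 cells, a count of 0 that still permits up to 0.483% of cells to hold one. The summed fibroblast-like markers lay between 528 and 1201 CPM in the 6 sums of cells, mostly from Col1a1, which had reads in 99.8% of cells. Other genes of these lists had reads in some cells: Cspg4 in 9.98%, Csf1r in 9.34%, Pdgfrb in 8.53%, Dcn in 4.03%, Cldn5 in 2.58%, Cd68 in 1.93%, Pecam1 in 0.805%, Lum in 0.483% and Emcn in 0.161%. Their part in the results was not tested.

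The classes also differed in measures that bear on every comparison below. The median number of genes detected per cell was 3690 and 3550 in promyelinating, 2775 and 2819 in other and 3425 and 3477 in cycling cells. The summed level of 8 genes that respond to tissue dissociation, among them Fos and Atf3, was 2078 and 2230 CPM in promyelinating, 5471 and 5899 in other and 4331 and 6512 in cycling cells. The part of the number of detected genes in the differences was not tested, and results are also given with each cell thinned to 50000 reads and without the cells that had a read of Atf3.

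**Figure D1:**
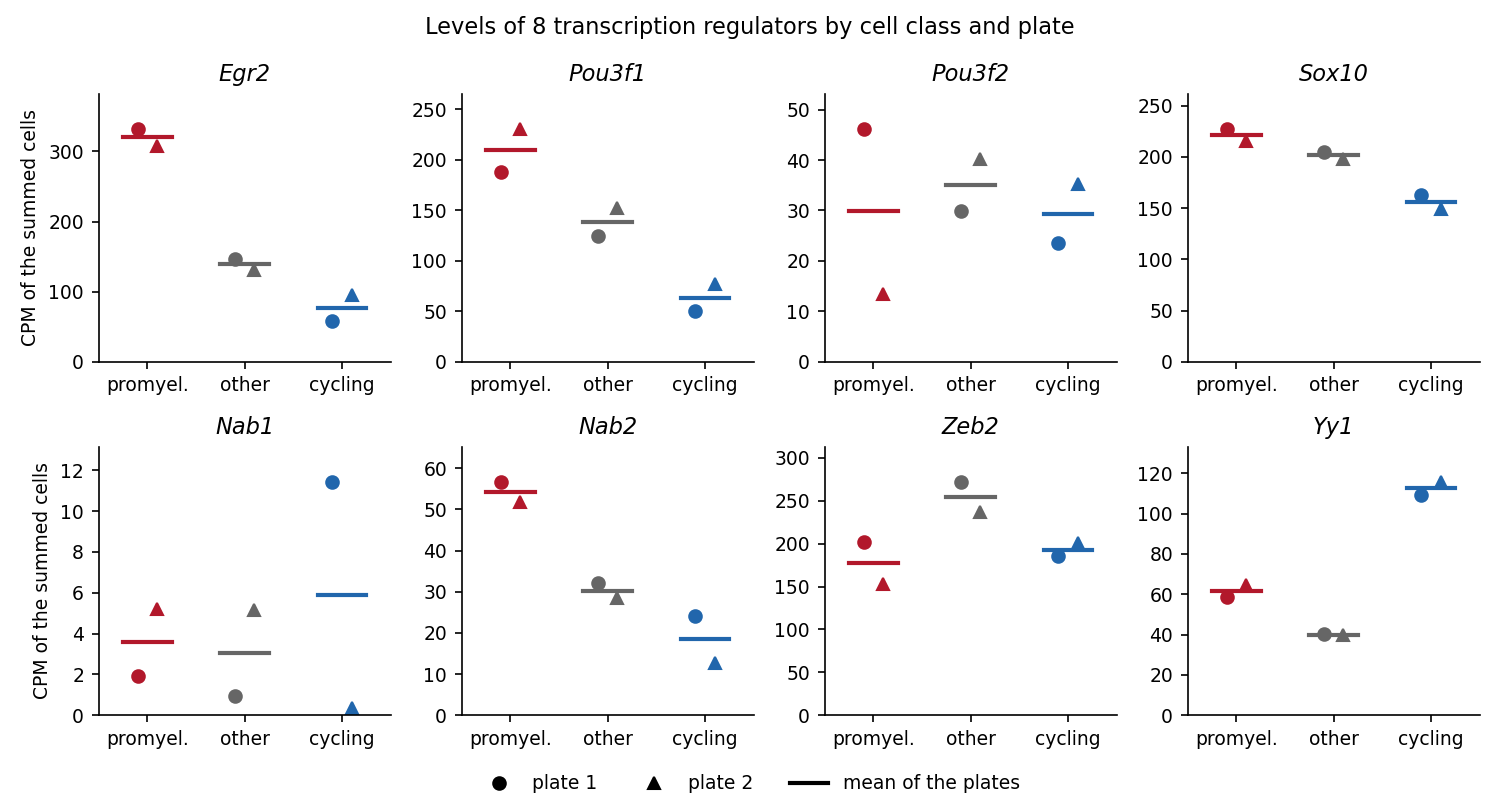
Level of each of the 8 regulators in the summed reads of a class, in CPM on a linear axis from 0. Circles are plate 1, triangles plate 2 (n = 2 per class) and lines their means, and Egr2 stands at 333 and 307 CPM in promyelinating cells, above both other classes on both plates.

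Egr2, the zinc finger factor at the centre of the myelin programme, was highest in promyelinating cells, intermediate in other cells and lowest in cycling cells on both plates. Its level was 333 CPM on plate 1 and 307 CPM on plate 2 in promyelinating cells. In other cells it was 147 and 131 CPM, and in cycling cells 58.7 and 95.7 CPM. The 3 classes did not overlap between plates. The means were 320 ± 18, 139 ± 10.8 and 77.2 ± 26.1 CPM (SD, n = 2). Promyelinating cells had 4.02 times as much Egr2 as cycling cells in the fit over all genes (log2 2.01, SE 0.29, adjusted p = 0.00562, edgeR quasi-likelihood test with Benjamini-Hochberg adjustment), and this difference passed the threshold of 0.05 in each alternative tried, with edgeR, limma or DESeq2 adjusted p from 2.92e-09 to 0.0231. Against other cells the difference was 2.43-fold (log2 1.28, SE 0.29) and missed the threshold in the edgeR fit (unadjusted p = 0.00188, adjusted p = 0.0805). It passed with DESeq2 (adjusted p = 0.000499), without the filter on low counts in edgeR (0.00794), in cells thinned to 50000 reads (0.0195) and with limma on the mean of the cells (0.0323), and it missed with edgeR when any single sum of cells was left out (0.17 to 0.41). In cells without a read of Atf3, a setting chosen after the data were seen, Egr2 was 333 and 299 CPM in promyelinating and 140 and 147 CPM in other cells (edgeR adjusted p = 0.259).

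Egr2 was found in nearly all promyelinating cells and in about as many other cells with it as without it. It had at least 1 read in 96.6% and 93.3% of promyelinating cells (exact 95% intervals 88.3 to 99.6% and 83.8 to 98.2%) and in 52.0% and 52.1% of other cells (44.3 to 59.6% and 45.2 to 58.9%). Among cycling cells the share was 43.4% and 50.9%. Thinning each cell to 50000 reads left out 5 cells. The shares were then 89.8% and 91.4% in promyelinating and 45.7% and 45.6% in other cells, so the gap remained at an equal number of reads. Before thinning the median reads were 905794 and 831680 in promyelinating and 950150 and 795029 in other cells. Thinning does not equalise the number of detected genes, whose part in this gap was not tested. Among cells with at least 10 CPM of Egr2, the median was 232 and 346 CPM in promyelinating and 214 and 212 CPM in other cells, which on plate 1 was nearly the same level. In cycling cells with at least 10 CPM the median was 90.2 and 117 CPM, and 3 cells supplied 48.5% and 53.8% of all Egr2 reads of the cycling class.

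Pou3f1, the POU factor that precedes Egr2, followed the same order with smaller steps. It stood at 188 and 231 CPM in promyelinating cells. In other cells it was 125 and 152 CPM, and in cycling cells 50.4 and 77.0 CPM. Within each plate the order of the classes was the same and no class overlapped another across plates (means 209 ± 30.5, 139 ± 19.5 and 63.7 ± 18.8 CPM, SD, n = 2). The 3.18-fold difference between promyelinating and cycling cells passed the test (log2 1.67, SE 0.31, edgeR adjusted p = 0.0184). It was lost without the promyelinating sum of plate 2 (log2 1.52, edgeR adjusted p = 0.0693) and without the cycling sum of plate 1 (log2 1.43, edgeR adjusted p = 0.0575). Between promyelinating and other cells Pou3f1 differed by log2 0.67 (SE 0.30, edgeR adjusted p = 0.468), and between cycling and other cells by log2 -0.995 (SE 0.31, edgeR adjusted p = 0.281), neither past the threshold.

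Pou3f1 was found in at least as many cells as Egr2 in each class. It had reads in 96.6% and 96.7% of promyelinating, 74.9% and 69.6% of other and 58.5% and 71.9% of cycling cells. In cells with at least 10 CPM, the median level of Pou3f1 was 135 and 155 CPM in promyelinating and 136 and 155 CPM in other cells. The level in cells that had the gene was thus nearly the same in both noncycling classes on each plate, while the share of cells with the gene differed. An annotated gene on the opposite strand, Gm2164, overlaps Pou3f1, and the strand setting of the counting is not given in the sources used here, so reads of the pair cannot be told apart.

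Pou3f2, the second POU factor, showed no order of the classes that both plates shared. Its levels were 46.2 and 13.4 CPM in promyelinating, 29.9 and 40.2 CPM in other and 23.5 and 35.3 CPM in cycling cells. All 3 classes overlapped, and the log2 difference between promyelinating and other cells was 0.63 on plate 1 and -1.59 on plate 2 (edgeR -0.15, SE 0.68, adjusted p = 0.985). Pou3f2 had reads in 49.2% and 40.0% of promyelinating and 30.3% and 32.3% of other cells.

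Sox10, the lineage factor, differed little between the classes. It was 228 and 216 CPM in promyelinating, 205 and 198 CPM in other and 163 and 150 CPM in cycling cells. The order was the same on both plates and no class overlapped another, but the steps were small: log2 0.22 (SE 0.23, edgeR adjusted p = 0.852) between promyelinating and other cells and log2 0.45 (SE 0.23, edgeR adjusted p = 0.315) between promyelinating and cycling cells. Sox10 had reads in 89.8% and 95% of promyelinating, 77.7% and 80.6% of other and 77.4% and 87.7% of cycling cells.

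The cofactors of EGR proteins differed from each other in abundance. Nab2 was 56.7 and 51.9 CPM in promyelinating, 32.1 and 28.5 CPM in other and 24.1 and 12.8 CPM in cycling cells, without overlap of the classes. The differences were log2 0.92 (SE 0.54, edgeR adjusted p = 0.608) against other cells and log2 1.49 (SE 0.55, edgeR adjusted p = 0.178) against cycling cells, the second of which passed with DESeq2 (adjusted p = 0.0434). Nab2 had reads in 54.2% and 46.7% of promyelinating against 25.7% and 27.2% of other cells, and in 35.8% and 24.6% of cycling cells. Its levels rest on few cells: 3 cells supplied 39.5% and 56.5% of the Nab2 reads of the promyelinating class. In the other class 3 cells supplied 55.8% and 32.8%, and in the cycling class 49.5% and 74.8%. Genes on the opposite strand, among them Stat6 and Nemp1, overlap Nab2, so their reads cannot be told apart either. Nab1 was nearly absent: it had reads in 4.18% of cells on plate 1 and 4.19% on plate 2, and 3 cells supplied 76.7% and 87.2% of them. Its levels, between 0.33 and 11.4 CPM in the 6 sums, rest on these few cells and allow no comparison (promyelinating against other cells, edgeR log2 0.33, SE 1.93, adjusted p = 0.99).

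Zeb2, the repressor, had its highest level in other cells, with 202 and 153 CPM in promyelinating, 272 and 237 CPM in other and 185 and 201 CPM in cycling cells. This held on both plates, and the promyelinating and cycling classes overlapped. The difference between promyelinating and other cells was log2 -0.44 (SE 0.25, edgeR adjusted p = 0.58). Zeb2 had reads in most cells of every class, in 91.5% and 81.7% of promyelinating, 89.1% and 88.9% of other and 98.1% and 93.0% of cycling cells. The antisense gene Zeb2os overlaps it.

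Yy1 was highest in cycling cells, at 109 and 116 CPM, followed by promyelinating cells at 58.8 and 64.6 CPM and other cells at 40.1 and 39.5 CPM. The classes did not overlap (means 113 ± 4.51, 61.7 ± 4.09 and 39.8 ± 0.436 CPM, SD, n = 2). The 3.09-fold difference between cycling and other cells (log2 1.63, SE 0.35) missed the threshold with edgeR (adjusted p = 0.094, range over the alternatives 2.35e-05 to 0.568) and passed with DESeq2 (adjusted p = 2.35e-05) and without the filter on low counts in edgeR (0.038). Yy1 had reads in 37.7% and 38.6% of cycling, 29.1% and 20.7% of other and 42.4% and 35% of promyelinating cells, and 3 cells supplied 56.5% and 47.8% of the Yy1 reads of the cycling class. Between promyelinating and cycling cells Yy1 differed by log2 -0.92 (SE 0.34, edgeR adjusted p = 0.18), a difference that passed with DESeq2 (adjusted p = 0.0348). In cells without a read of Atf3, Yy1 was 61.6 and 116 CPM in cycling and 58.8 and 63.0 CPM in promyelinating cells. There these classes overlapped, and other cells had 43.9 and 41.2 CPM.

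**Figure D2:**
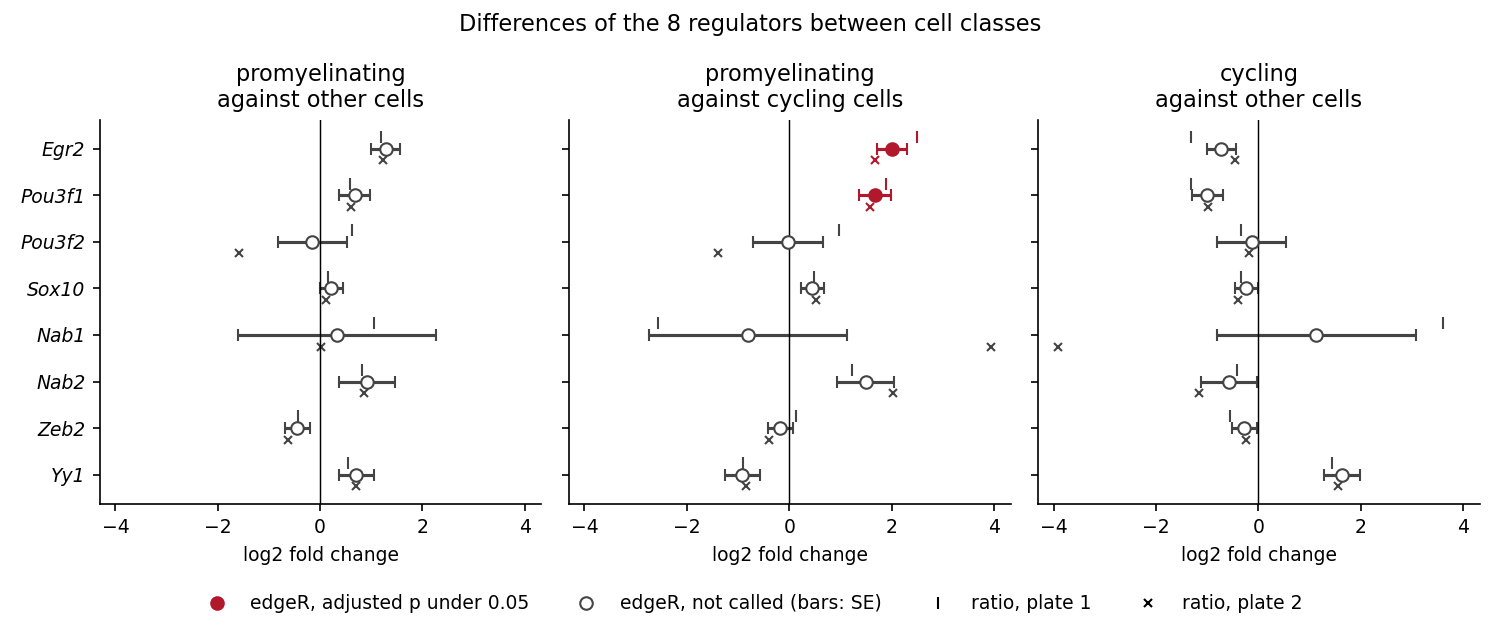
Log2 fold change of each regulator in the 3 comparisons of classes, with the edgeR estimate and its SE and the log2 ratio of CPM on each plate (n = 2). Filled estimates passed the adjusted threshold, which were Egr2 at 2.01 and Pou3f1 at 1.67 in promyelinating against cycling cells.

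Counted over the group, 2 of 8 regulators were higher in promyelinating than in cycling cells and none was lower, against 5.93% of the 13289 genes tested (2.11% higher and 3.82% lower, edgeR), and 4 of 8 had an unadjusted p under 0.05. DESeq2 called 4, adding Nab2 and Yy1, where it called 2319 of 13031 genes in all, and limma 2, of 1340 genes in all. Between promyelinating and other cells edgeR called 0 of 8, against 1.78% of all genes (0.489% higher and 1.29% lower). There 1 had an unadjusted p under 0.05, and DESeq2 and limma each called 1, Egr2, of 1024 and 378 genes in all. Between cycling and other cells edgeR again called 0 of 8, against 0.993% of all genes (0.88% higher and 0.113% lower), with 3 at an unadjusted p under 0.05. In that comparison DESeq2 called 1, Yy1, of 805 genes in all, and limma 0. In cells without a read of Atf3 edgeR called the same 2 regulators in promyelinating against cycling cells and 0 in the other comparisons. The members' median log2 difference between promyelinating and other cells was 0.50, where that of all genes was -0.07.

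In the share of cells with a read, 7 of 8 regulators (all but Zeb2) were higher in promyelinating than in other cells on both plates, as were 56.9% of all genes tested. With cells thinned to 50000 reads this held for 5 (Egr2, Pou3f1, Sox10, Nab2 and Yy1), as for 51.1% of all genes. With 2 plates against 2 an exact permutation test of such shares cannot give a p below 0.33, so none was made.

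Because full-length reads grow in number with transcript length, levels of different genes were compared only as CPM per kilobase of exon, using GENCODE M21 on GRCm38. In promyelinating cells Egr2 (chr10:67535475-67542188, plus strand, 3.398 kb of exon) led with 94.1 ± 5.29 CPM per kb (SD, n = 2). Sox10 (chr15:79154908-79165240, minus strand, 3.051 kb) followed with 72.7 ± 2.81, Pou3f1 (chr4:124656807-124660655, plus strand, 3.849 kb) with 54.4 ± 7.92 and Nab2 (chr10:127660918-127668568, minus strand, 2.941 kb) with 18.5 ± 1.2 CPM per kb. In this class the ranges of these 4 genes over the plates did not overlap. Below them, Yy1 (chr12:108792973-108820148, plus strand, 6.418 kb) at 9.62 ± 0.637 and Zeb2 (chr2:44983632-45117395, minus strand, 19.942 kb) at 8.89 ± 1.72 CPM per kb were not apart by more than their spread. Zeb2 has by far the longest exon sequence of the group, so that its 202 CPM corresponded to 10.1 CPM per kb on plate 1. The lengths are those of the annotated exons of each gene. Which transcripts were present was not measured, so a gene with shorter transcripts than this is understated. Pou3f2 (chr4:22482780-22488366, minus strand, 5.587 kb) and Nab1 (chr1:52457294-52500679, minus strand, 4.1 kb) were lowest, at 5.34 ± 4.16 and 0.873 ± 0.567 CPM per kb.

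In other cells the order was led by Sox10, at 66.0 ± 1.56 CPM per kb, ahead of Egr2 at 40.9 ± 3.19 and Pou3f1 at 36 ± 5.07, and the last of these were within their spread of each other. Cycling cells kept Sox10 in front at 51.2 ± 3.06 CPM per kb. There Egr2 (22.7 ± 7.69), Yy1 (17.5 ± 0.702) and Pou3f1 (16.5 ± 4.88) overlapped. Egr2 was thus the regulator with the highest CPM per kb of annotated exon in promyelinating cells, and Sox10 in both other classes.

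In single cells Pou3f1 and Egr2 were mostly found together in promyelinating cells, and in every combination in other and cycling cells. A cell was counted as having a gene at 10 CPM or more. Of the promyelinating cells, 55 of 59 on plate 1 and 50 of 60 on plate 2 had both genes, 2 and 6 had Pou3f1 alone, 2 and 4 had Egr2 alone, and none had neither. Of the other cells, 65 and 73 had both, 50 and 68 Pou3f1 alone, 20 and 32 Egr2 alone and 40 and 44 neither. Of the cycling cells, 10 and 15 had both, 13 and 19 Pou3f1 alone, 10 and 9 Egr2 alone and 20 and 14 neither. In other cells Pou3f1 without Egr2 was therefore more frequent than Egr2 without Pou3f1 on both plates.

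Among other cells, Egr2 was present in 56.5% and 51.8% of those with Pou3f1 and in 33.3% and 42.1% of those without it. Over all cells the shares were 66.7% and 59.7% with and 34.8% and 43.7% without Pou3f1. In cycling cells they were 43.5% and 44.1% with and 33.3% and 39.1% without. In these 3 sets of cells the share was higher with Pou3f1 on both plates, by the least on plate 2 of the cycling class. In promyelinating cells it was not: 96.5% and 89.3% of those with Pou3f1 had Egr2, and so did all of those without it, which numbered only 2 and 4.

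**Figure D3:**
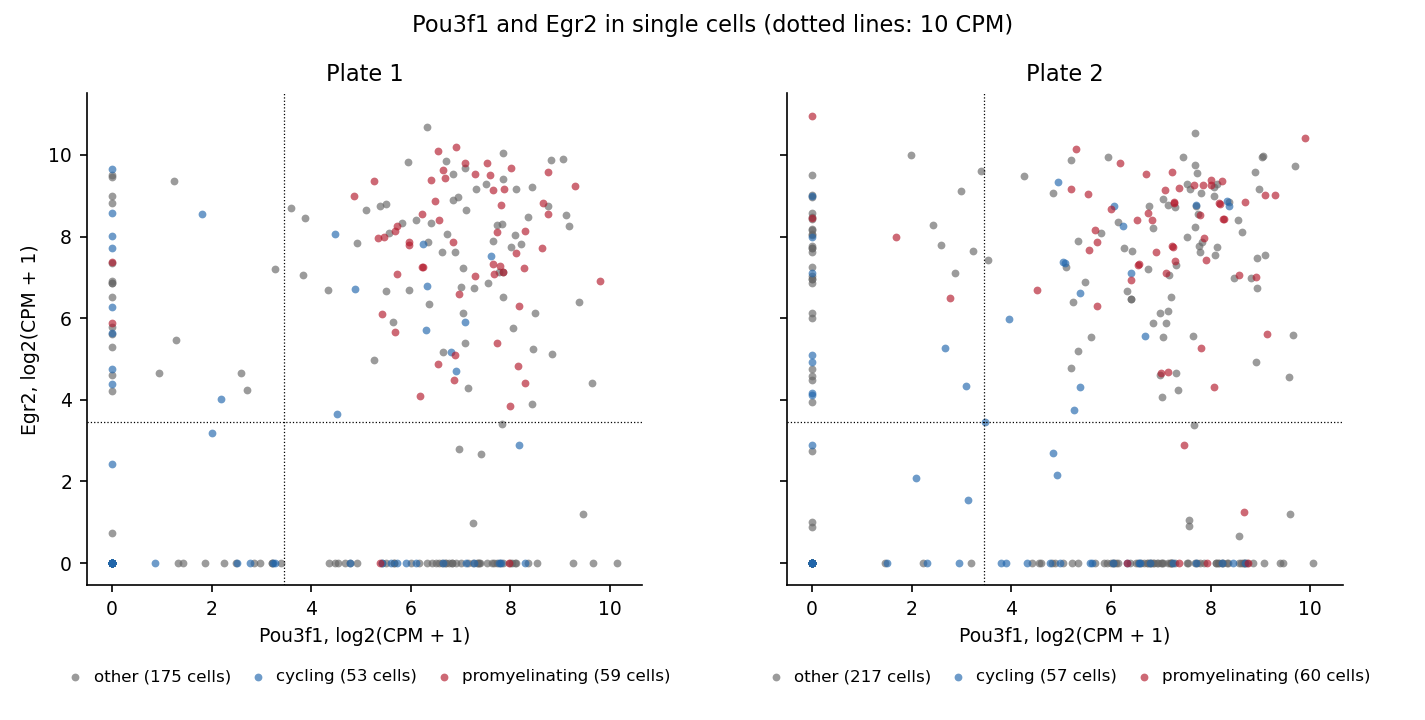
Pou3f1 against Egr2 in each of the 621 cells, as log2(CPM + 1), 1 panel per plate and coloured by class. The promyelinating cells lie where both genes are present, 55 of 59 and 50 of 60, while other cells also fill both axes and the origin.

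The levels of the pair were only loosely related. Over all cells Pearson's r of log2(CPM + 1) was 0.312 on plate 1 (n = 287) and 0.195 on plate 2 (n = 334), and Spearman's rho 0.296 and 0.206. Cells of a plate share mice and library preparation and differ in depth, so r is given as a description without a p. Within classes r was 0.252 and 0.130 in other cells, 0.075 and -0.161 in promyelinating cells and 0.000 and 0.083 in cycling cells. Among cells with reads of both genes it was 0.084 (n = 145) and 0.116 (n = 160), below the value over all cells on both plates. Among the remaining pairs of regulators, Egr2 with Nab2 had r of 0.182 and 0.197, Pou3f1 with Pou3f2 0.136 and 0.142, and Pou3f1 with Zeb2 -0.090 and -0.095. The last 2 did not stand out. Pou3f1 with Nab2 had 0.146 and 0.091, Pou3f2 with Nab2 0.145 and 0.106, and Pou3f2 with Nab1 -0.101 and -0.084.

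The promyelinating state itself was concentrated in cells with both factors. Of the noncycling cells with both, 45.8% and 40.7% were promyelinating, compared with 3.85% and 8.11% of those with Pou3f1 alone, 9.09% and 11.1% of those with Egr2 alone and none of the 40 and 44 cells with neither. Ncmap, which defines that class and not the states, was at 730 and 697 CPM in cells with both, 73.2 and 77.7 CPM with Pou3f1 alone, 21.8 and 171 CPM with Egr2 alone and 0.0546 and 0 CPM with neither.

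**Figure D4:**
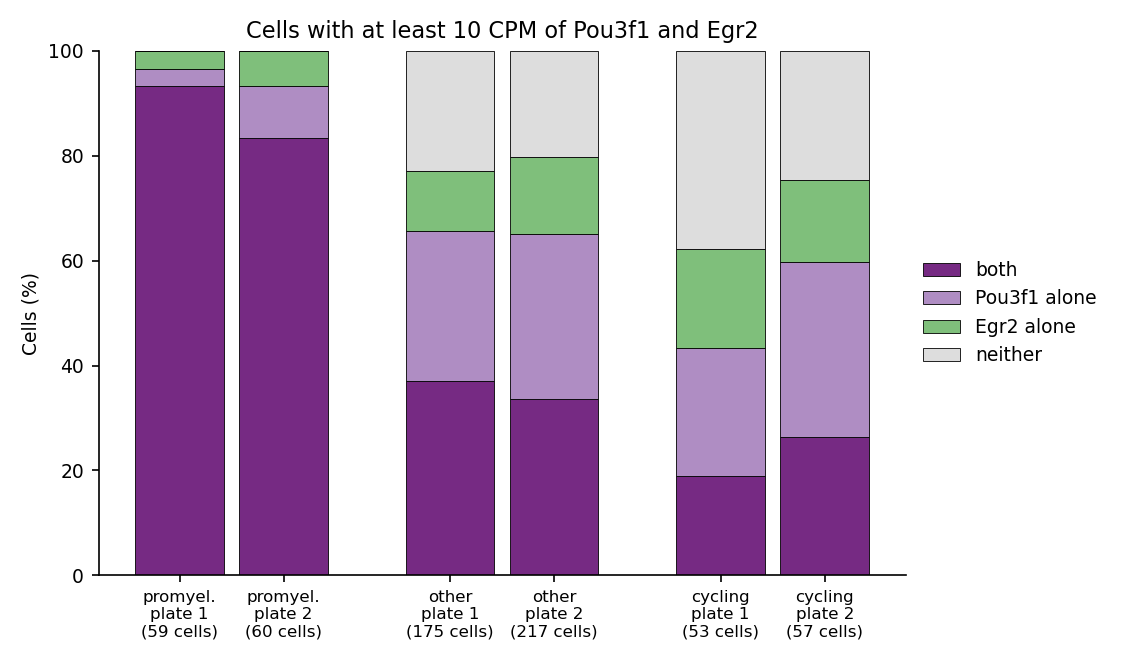
Cells with Pou3f1, Egr2, both or neither at 10 CPM or more, as a percent of the cells of each class and plate. Cells with both make up 93.2% and 83.3% of promyelinating cells and 37.1% and 33.6% of other cells.

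The myelin genes Pmp22 and Mbp were highest in cells with both factors. Pmp22, a compact myelin protein, was 6479 and 7270 CPM in noncycling cells with both, 2250 and 2673 with Pou3f1 alone, 2812 and 4238 with Egr2 alone and 2071 and 2593 with neither. Mbp, a cytoplasmic myelin protein, was 4921 and 5322 CPM with both, 1819 and 2233 with Pou3f1 alone, 3100 and 3936 with Egr2 alone and 1614 and 2154 with neither. For each of them the cells with both factors were highest on each plate and did not overlap the other states.

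Between cells with both factors and cells with Pou3f1 alone, edgeR called 0 of 13070 genes (0.0%) beside the genes that formed the states, with 365 at an unadjusted p under 0.05. DESeq2 called 195, limma 0, and edgeR with the plate as a block 2. Of the 14 myelin genes on a list of Egr2 and Sox10 targets, 13 had a positive log2 difference, with a median of 1.41 against 0.02 for all genes, and 0 passed the edgeR test, with 9 at an unadjusted p under 0.05, 5 by DESeq2 and 0 by limma. Mbp differed by log2 1.31, Mag by 2.54 and Pmp22 by 1.46 (edgeR adjusted p for Pmp22 = 0.257). Of the 6 regulators that did not form the states, 0 passed with edgeR, DESeq2 or limma and 1 had an unadjusted p under 0.05, Yy1, with 62.3 and 58.9 CPM in cells with both and 11.7 and 24.6 CPM with Pou3f1 alone (log2 1.73, SE 0.71, edgeR adjusted p = 1.0). Sox10 differed by log2 0.09, Zeb2 by -0.04 and Nab2 by -0.10. Cells with both factors had more detected genes, with a median of 3292 and 3156 against 2618 and 2685 for Pou3f1 alone. The part of this in the differences was not tested beyond thinning, which equalises reads and not detected genes.

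Restricting the states to other cells, all of them under 50 CPM of Ncmap, was added after the data were seen. There Pmp22 was 2099 and 3112 CPM in cells with both and 1845 and 2039 CPM with Pou3f1 alone, Mbp 2212 and 2903 against 1524 and 1852 CPM, and Mag, an adhesion protein of the myelin facing the axon, 54.4 and 136 against 1.48 and 26.1 CPM. Each was higher with both factors than with Pou3f1 alone on each plate. Between these states edgeR called 0 genes, with 221 at an unadjusted p under 0.05. Other cells with Egr2 alone had more Pmp22 (2385 and 3420 CPM) and Mbp (2497.5 and 3591.5 CPM) than those with both factors on each plate. The order of the states over all noncycling cells was thus not kept for these genes. Mag, at 46.8 and 155 CPM with Egr2 alone, was lower than with both on plate 1 and higher on plate 2. Yy1 had in other cells 62.5 and 53.2 CPM with both factors against 12.1 and 22.7 CPM with Pou3f1 alone.

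Noncycling cells with Egr2 but no Pou3f1 numbered 22 and 36. Egr1, a relative of Egr2 induced within minutes by many stimuli, was 1175 and 1313 CPM in these cells, 349 and 487 CPM in cells with both factors, 503 and 587 CPM with Pou3f1 alone and 486 and 888 CPM with neither. Fos was 7063 and 7336 CPM with Egr2 alone and between 3208 and 4819 CPM in the other 3 states. Atf3 had reads in 68.2% and 47.2% of cells with Egr2 alone, 15.8% and 18.7% with both, 21.2% and 25.7% with Pou3f1 alone and 37.5% and 38.6% with neither. Of the 8 dissociation genes, the level was highest with Egr2 alone on both plates for 6 (Fos, Atf3, Ier2, Fosb, Junb and Hspa1b) and on plate 1 only for Dusp1 and Hspa1a. On plate 2 Dusp1 was 310 CPM with Egr2 alone and 329 CPM with neither, and Hspa1a was 135 CPM with Egr2 alone and 160.4 CPM with Pou3f1 alone. No test of these differences was made. These states were singled out for this after their values were seen, and the part of the dissociation response in the Egr2 of these cells was not tested. Cells with Egr2 alone had a median of 920699 and 465813 reads. The median was 919612 and 791987 with both factors, 1006460 and 900110 with Pou3f1 alone and 942984 and 966171 with neither. The part of this depth in the differences was not tested.

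Over noncycling cells Egr2 had the highest r of the 8 regulators with the summed level of the myelin list. The r of Egr2 with that sum was 0.417 and 0.421 (n = 234 and 277). Within other cells it was 0.212 and 0.270, and within promyelinating cells 0.039 and 0.150, where Nab1, found in few cells, had 0.242 and 0.437. For Pou3f1 it was 0.103 and -0.017 over noncycling cells, -0.116 and -0.248 within other cells and -0.423 and -0.336 within promyelinating cells (n = 59 and 60). Among promyelinating cells Pou3f1 was thus lower in cells with more myelin RNA on both plates. CPM sums to a fixed total in each cell, and the part of this in the relation was not tested. Nab2 had r of 0.306 and 0.163 over noncycling cells, and for Sox10, Zeb2, Pou3f2, Nab1 and Yy1 the values lay between -0.050 and 0.158.

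The genes most similar to each regulator over single cells were ranked by the lower r of the plates among 4925 genes found in at least 20% of cells. For Egr2 these were Csrp2 (r = 0.436 and 0.425), Fa2h, which makes hydroxylated myelin lipids (0.409 and 0.450), and Mpp6, a membrane scaffold (0.447 and 0.396), where the median gene had 0.0285. For Pou3f1 they were Cdkn1c, an inhibitor of cyclin-dependent kinases (0.453 and 0.401), Csrp2 (0.386 and 0.350) and Mpp6 (0.392 and 0.344), where the median gene had 0.00234. Csrp2 and Mpp6 thus appeared for both genes, each with an r above that of Pou3f1 with Egr2. The best matches of Sox10 (Afap1l2, 0.191 and 0.196) and Zeb2 (Cdc42ep5, 0.175 and 0.171) were weak.

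Genes around the 8 regulators were described from lists chosen with earlier results of these data known. Of the 14 myelin genes, 8 were higher in promyelinating than in other cells by edgeR (0.489% of all genes) and 14 had a positive log2 difference, with a median of 2.35 where that of all genes was -0.07. Pmp22 was 11463 and 11856 CPM in promyelinating against 2052 and 2639 CPM in other cells (log2 2.39, SE 0.15, edgeR adjusted p = 0.000673). Mag was 473 and 439 against 30.8 and 75.8 CPM (log2 3.19, SE 0.50, edgeR adjusted p = 0.0172), a call lost in cells without a read of Atf3 (0.0519). Fa2h was 217 and 262 against 12.8 and 42.9 CPM (log2 3.19, SE 0.60, edgeR adjusted p = 0.0385) and missed the threshold when either promyelinating sum (0.0647 without plate 1 and 0.0968 without plate 2) or the other sum of plate 1 (0.0534) was left out, in cells with at least 2500 genes (0.0869) and in cells without a read of Atf3 (0.132). Mbp, Prx, Pllp and Cldn19 were also among the called genes. Against cycling cells 9 of 14 were higher (2.11% of all genes), and between cycling and other cells edgeR called 0, with 6 at an unadjusted p under 0.05, DESeq2 3 and limma 1.

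**Figure D5:**
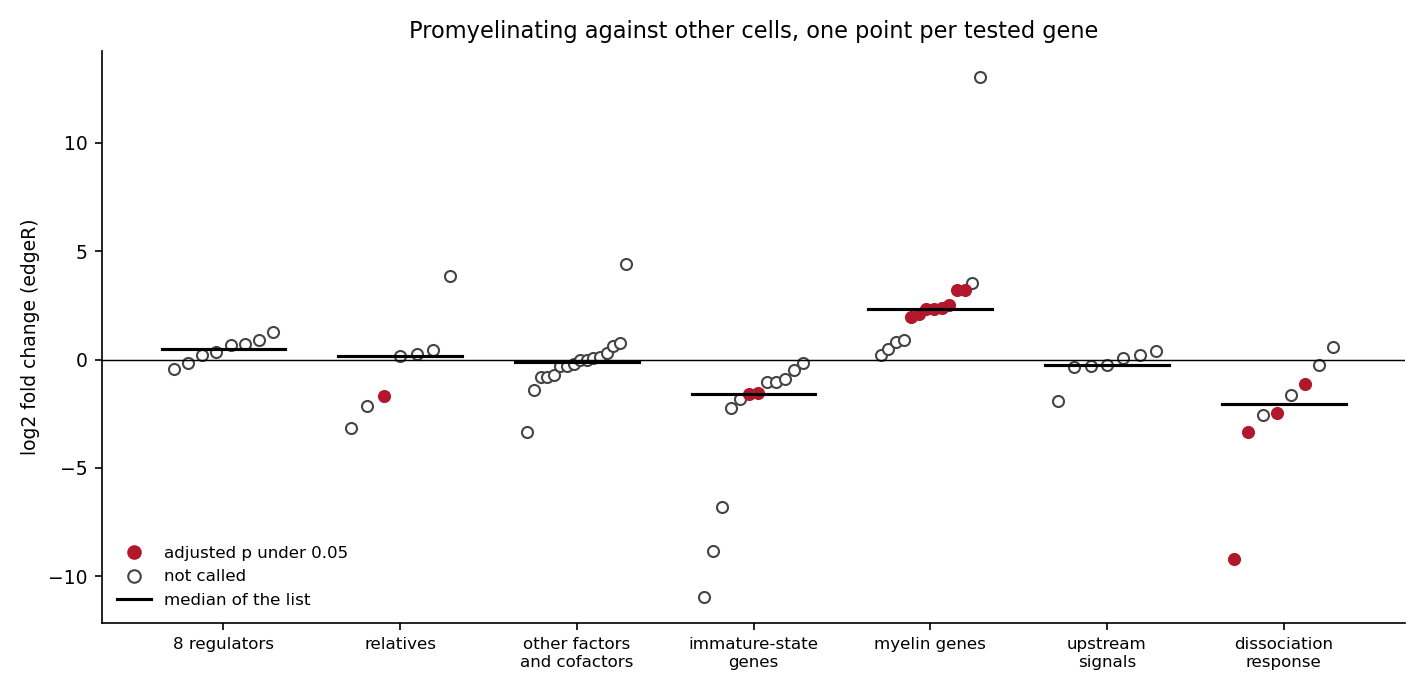
Log2 fold change of promyelinating against other cells for each tested gene of the 8 regulators and of the 6 lists around them, with the median of each list and filled points for genes past the edgeR threshold. The myelin genes centre on 2.35 and the genes that hold back myelination on -1.59, while the 8 regulators centre on 0.50. The most extreme open points are genes with few or no reads in one class.

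Of the genes that hold back myelination or mark the immature state, all 12 had a negative edgeR log2 difference between promyelinating and other cells. Their median was -1.59 where that of all genes was -0.07, and 2 passed, both lower (1.29% of all genes). The log2 ratio on plate 1 was 1.47 for Id1 and 0.43 for Id4, and both were negative on plate 2. Hey2 and Pax3 had no read in promyelinating cells. Among other cells of plates 1 and 2, Hey2 had reads in 0 and 2 and Pax3 in 1 and 1. Ednrb, an endothelin receptor whose gene Zeb2 is known to repress, was 1186 and 1673 against 4534 and 4373 CPM (log2 -1.56, SE 0.18, edgeR adjusted p = 0.00424). Jun, an antagonist of myelination, was 132 and 139 against 386 and 486 CPM (log2 -1.61, SE 0.22, edgeR adjusted p = 0.00871), and it missed the threshold without the other sum of plate 2 (0.0517) and in cells without a read of Atf3 (0.0843). Against cycling cells 4 of 12 were lower (3.82% of all genes): Sox2, a factor of immature SCs (log2 -2.67, edgeR adjusted p = 0.0259), Id3, an inhibitor of differentiation (log2 -6.40, adjusted p = 0.0496), Ednrb and Jun. The fitted value of Id3 rests on a promyelinating level of 1.32 CPM on plate 1 and 0 CPM on plate 2. The call of Sox2 was lost with edgeR without the promyelinating sum of plate 1 (adjusted p = 0.0916) or of plate 2 (0.0847), without the cycling sum of plate 2 (0.102), in cells with at least 2500 genes (0.06) and in cells without a read of Atf3 (0.102). That of Id3 was lost without the filter on low counts (edgeR adjusted p = 0.298), without the cycling sum of plate 1 (0.13) or of plate 2 (0.0889), with at least 2500 genes (0.0698) and without Atf3 (0.0953).

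Among relatives of the 8 regulators, 7 of 9 were tested and 1 passed, a lower one (1.29% of all genes). Egr1 was lower in promyelinating cells, at 174 and 231 CPM against 590 and 791 CPM in other cells (log2 -1.69, SE 0.26, edgeR adjusted p = 0.0162). The call was lost without the promyelinating sum of plate 1 (0.0747), without the other sum of plate 2 (0.0509) and in cells without a read of Atf3 (log2 -1.26, edgeR adjusted p = 0.159). Of the dissociation genes 4 of 8 (Fos, Atf3, Ier2 and Dusp1) were lower in promyelinating cells as well (1.29% of all genes), and their part in the Egr1 difference was not tested beyond this. With edgeR the call of Atf3 was lost without the low-count filter (adjusted p = 0.257) and without the other sum of plate 1 (0.495) or of plate 2 (0.307). That of Fos was lost without the promyelinating sum of plate 1 (0.0797) or of plate 2 (0.0662), and that of Ier2 without the other sum of plate 2 (0.0514). In cells without a read of Atf3 the calls of Fos (0.337), Ier2 (0.0907) and Dusp1 (0.16) were lost by edgeR as well. Egr1 was also lower than in cycling cells (log2 -1.91, edgeR adjusted p = 0.00413).

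Of 16 other factors and cofactors tested, 0 passed between promyelinating and other cells with edgeR, with 3 at an unadjusted p under 0.05 and 1 each by DESeq2 and limma. Rxrg, a retinoid X receptor, came nearest, at 3.57 and 15.7 against 92.6 and 113 CPM (log2 -3.34, edgeR adjusted p = 0.0529), and it was lower than in cycling cells (log2 -3.28, edgeR adjusted p = 0.0267), a call lost without the cycling sum of plate 2 (0.0599). Of the 7 upstream signalling genes, among them the neuregulin receptors Erbb2 and Erbb3 and the adhesion receptor Adgrg6, 0 passed with edgeR in any of the 3 comparisons of classes. In promyelinating against other cells 1 of them had an unadjusted p under 0.05, and DESeq2 and limma each called 1. Between cycling and other cells edgeR called 0 genes of the remaining 5 lists as well, where 2 of the genes that hold back myelination and 1 of the dissociation genes had an unadjusted p under 0.05, DESeq2 called 1 of the former and limma 0. Against cycling cells 5 of the 8 dissociation genes were lower in promyelinating cells (3.82% of all genes), of which edgeR lost Atf3 without the filter on low counts (adjusted p = 0.159) and without the cycling sum of plate 2 (0.0732), and Fosb without the latter (0.0639), without the promyelinating sum of plate 1 (0.0803) and in cells without a read of Atf3 (0.0961).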

How the data were processed

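Single-cell RNA was measured in 743 wells of 2 Smart-seq2 plates (1 group, postnatal day 1), with 276327564 and 274141117 reads assigned to genes on plates 1 and 2. The deposited table holds raw read counts per gene and cell, made by the authors with bcl2fastq, STAR 2.6.1c and featureCounts on GRCm38.p5 according to the submitters' processing notes. Of 25700 genes 9528 had no read, 25587 identifiers matched a symbol, and 0 pairs of columns were identical. Reads carry no molecular identifiers, so intervals and limits cover counting error only.

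Cells with under 1500 detected genes were left out, as in the study. The counts were summed into 6 sums by plate and class, or 8 by plate and Pou3f1/Egr2 state, and tested with edgeR 4.0.16 in R 4.3.3 (TMM, filterByExpr, glmQLFit, glmQLFTest, adjusted p under 0.05 over all genes), without a plate term. Genes that defined a class or state stayed in its fit and adjustment, but were left out of the counts and are no result there. The alternatives were DESeq2 1.42.0, limma 3.58.1 on log2(mean CPM + 1), the plate as a block, no low-count filter, thinning, other minima for genes (1000 and 2500), class (20 and 100 CPM) and state, and leaving out each sum. Sums of a plate come from the same mice, and their deviations over 3705 genes correlated with r of 0.189, 0.135 and 0.228 between classes. The scripts were tested on simulated data. TMM and DESeq2 scalings differed by under 0.1 on the log2 scale. Doublets were not called.

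The members, gene lists and tests were chosen with earlier results of these data known. The text names the 8 regulators throughout, up to 4 genes past the threshold per list and comparison (some are not reported here), with Rxrg as the nearest miss, and the 3 most similar genes of Egr2 and Pou3f1 and the first of Sox10 and Zeb2. The genes shown by state were chosen after their values were seen.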

Additional observations from a re-analysis of the deposited data

Results flagged for a closer look

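The 122 wells with under 1500 detected genes entered no comparison, and each of the 8 regulators had reads in them above the limit that a count of 0 allows (0.143 CPM over their 20955228 reads). Egr2 was at 163 CPM there, with a read in 9.02% of the wells. Zeb2 was at 545 CPM with a read in 32.0% of the wells, Yy1 at 70.5, Sox10 at 47.9, Pou3f1 at 44.1 and Pou3f2 at 43.5 CPM. Nab2 was at 0.382 and Nab1 at 0.191 CPM, from 8 and 4 reads. These values pool both plates. On plate 1 alone Nab1 had 0 reads and Nab2 was at 0.119 CPM, under that plate's limit of 0.178 CPM. Between plates 1 and 2 Zeb2 was at 628 and 206, Sox10 at 30.5 and 119 and Pou3f2 at 52.9 and 5.34 CPM. These wells had a median of 5685 reads.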

How the results depend on the processing

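With 2 plates the spread between mice rests on 2 pools, and thinning each cell to 50000 reads moved the mean over plates of the share of cells with a read of Yy1 in promyelinating cells from 38.7% to 32.5% and of Nab2 in other cells from 26.5% to 19.8%. The number of genes called in promyelinating against other cells (237) was 1024 with DESeq2, 521 without the filter, 378 with limma, 418 after thinning and 123 in cells without Atf3 (157 to 236 leaving out a sum). In cycling against other cells (132) it was 805, 316, 230 and 246 in the first 4 of these settings (101 to 131), and in promyelinating against cycling cells (788) 2319 with DESeq2, 1288 without the filter, 1340 with limma and 498 without Atf3 (591 to 738). Regulators called went from 0 to 1 in promyelinating against other cells with DESeq2, limma, no filter or thinning, from 0 to 1 in cycling against other cells with DESeq2 or no filter, and from 2 to 4 in promyelinating against cycling cells with DESeq2 (1 to 2 leaving out a sum). In the comparison of states, genes called (0) were 195 with DESeq2, 2 with the replicate block, 27 without the filter, 4 after thinning, 2 with states by at least 1 read and 0 to 2 leaving out a sum. With the plate as a block, edgeR called 295 genes in promyelinating against other cells and 154 in cycling against other cells. It called 883 in promyelinating against cycling cells. The block changed no count of regulators called. The r of Pou3f1 with Egr2 lay between 0.195 and 0.312, around 0.254. All reversals of sign concerned uncalled genes, and their cause was not tested. In promyelinating against other cells Pou3f2 (-0.15) was 0.49 without the promyelinating sum of plate 2, 0.05 without the other sum of plate 2, 0.047 with 2500 genes and 0.63 without plate 2, against -1.31 without the promyelinating sum of plate 1, and Nab1 (0.33) was -0.55, -0.41 and 1.99 without single sums. In cycling against other cells Pou3f2 was 0.07 and 0.11 without single sums and 0.31 with 2500 genes, and Nab1 -3.08, -3.91 (up to 2.80) in leave-outs and -0.43 without Atf3. In promyelinating against cycling cells Pou3f2 was 0.62, 0.28, 0.98 and as low as -1.18 in leave-outs, Zeb2 0.020, 0.12 and as low as -0.39, and Nab1 3.41, 3.93 and as low as -1.75, 0.70 with limma, 0.44 after thinning and 1.64 without Atf3. Between states Pou3f2 was -0.11 without plate 2. Sox10 was -0.06 in other cells only. Nab2 was -0.78 to 1.43 in leave-outs (0.11 and 1.21 among them), 0.41 with limma, 0.15 after thinning, 0.53 with 2500 genes and 0.27 with states by at least 1 read. Zeb2 was -0.47 to 0.30 (0.11 and 0.21 among them) in leave-outs, 0.12 with states by at least 1 read and 0.24 in other cells only.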
